A study of Mus musculus with 30 samples.

Results

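The genes described here are 40 mouse genes that act in mitosis, from the kinases that start it to the motors and scaffolds that end it, followed in the fetal ovary from 11.5 to 18.5 days post coitum (dpc). They were chosen by name, under a rule that uses no measured value, though with earlier results of these data known. The genes were found by their symbol in the annotation of 3 types of Affymetrix array, called A, B and C. All 40 were on the arrays and all 40 passed the filter on low signals, out of 12589 named genes tested and 15964 with a probe set of 1 symbol. They had 79 probe sets, of which 67 were tested and 12 were too dim. The tested probe set with the highest mean signal stands for its gene, so that 29 genes were read from array A, 9 from B and 2 from C.

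RNA came from pooled embryonic ovaries of BL/6-129 mice at 11.5, 12.5, 14.5, 16.5 and 18.5 dpc. There were 2 numbered samples per age, each with 1 array of each type, so 10 samples and 30 arrays. The gonads of the youngest ages, 11.5 and 12.5 dpc, had been sexed by PCR for Sry, the male-determining gene. Whether the samples of 1 age are separate pools of ovaries is not stated in the labels, and p-values then cover only how these samples spread, possibly for technical reasons.

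A cell that enters mitosis switches on the kinase Cdk1, packs its chromosomes with condensin and topoisomerase, and builds a spindle of microtubules around them. The spindle checkpoint holds the cell until every kinetochore, the protein plate at the centromere, is attached, after which the anaphase-promoting complex has securin and cyclin B destroyed and separase cuts the rings that hold sister chromatids. In the fetal ovary oogonia divide by mitosis and then enter meiotic prophase, while the somatic cells around them go on dividing for a time.

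Most of the mitosis genes were lower late in the course. Between 11.5 and 18.5 dpc 21 of the 40 genes fell and 5 rose (limma, adjusted p under 0.05), and 14 did not pass the test. Among all 12589 genes 8.37% fell and 9.14% rose, so the share of mitosis genes that fell was several times that of all genes and the share that rose was close to it. The median log2 change of the 40 genes was -0.64, with a range from -3.14 to 0.87, and that of all genes was 0.02. The largest fall was that of Ncapd2, a subunit of condensin I, at 8.80-fold, where 18.5 dpc replicate 2 read only 8.9. Without that sample Ncapd2 fell 5.09-fold and Aurkb, the kinase of the chromosomal passengers, 7.28-fold. Folds are ratios of signal + 16, which understates the change of dim genes. With 18.5 dpc replicate 1 left out 15 genes were called, all of them falling, and with 18.5 dpc replicate 2 left out 14 were called, of which 13 fell and 1 rose. Calls among all genes went from 2205 to 981 and 1107 with these samples left out. In RNA of whole ovaries, fewer dividing cells and less of these RNAs in each cell cannot be told apart.

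Much of the fall lay between 12.5 and 16.5 dpc. From 12.5 to 16.5 dpc 12 of the 40 genes fell and 1 rose, against 3.33% falling and 4.4% rising among all genes, and the median log2 change was -0.50 against 0.01 for all genes. Leaving out 12.5 dpc replicate 1 left 4 calls, and leaving out 12.5 dpc replicate 2 or 16.5 dpc replicate 2 left 3. Calls among all genes went from 973 to 312, 339 and 326 in the same fits, in which the age with 1 sample is assumed to vary like the other ages. The count was 18 of 40 without either 11.5 dpc sample, and among all genes it was then 1317 and 1311. Over the 5 ages together 27 of 40 genes passed the F test, where 17.8% of all genes did, and 16 of 40 passed it without 18.5 dpc replicate 1, when the count of all genes went from 2236 to 1146.

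Between neighbouring ages few changes were called. From 11.5 to 12.5 dpc limma called 0 of 40 genes, against 0.238% of all genes, with 2 up and 2 down at an unadjusted p under 0.05, and without 11.5 dpc replicate 2 it called 1. From 12.5 to 14.5 dpc it called 0 of 40, against 2.17% of all genes, with 2 up and 10 down unadjusted. The count was 4 without either 11.5 dpc sample and 1 without either 18.5 dpc sample. From 14.5 to 16.5 dpc it again called 0 of 40, against 0.858% of all genes, with 0 up and 14 down unadjusted, and 3 without either 11.5 dpc sample. Leaving out an 11.5 dpc sample also moved the calls among all genes, from 273 to 518 and 531 for 12.5 to 14.5 dpc and from 108 to 355 and 358 for 14.5 to 16.5 dpc. The median log2 change was -0.24 for 12.5 to 14.5 dpc and -0.29 for 14.5 to 16.5 dpc, so the decline was spread over both steps. From 16.5 to 18.5 dpc 1 gene rose (Prc1) and 2 fell (Top2a and Cenpf), where 0.588% of all genes rose and 0.254% fell. In that step 0 were called without 16.5 dpc replicate 2 or without 18.5 dpc replicate 2, and 1 was called without either 12.5 dpc sample, without 16.5 dpc replicate 1 or without 18.5 dpc replicate 1. In these fits between 24 and 64 of all genes were called in place of 106.

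**Figure D1:**
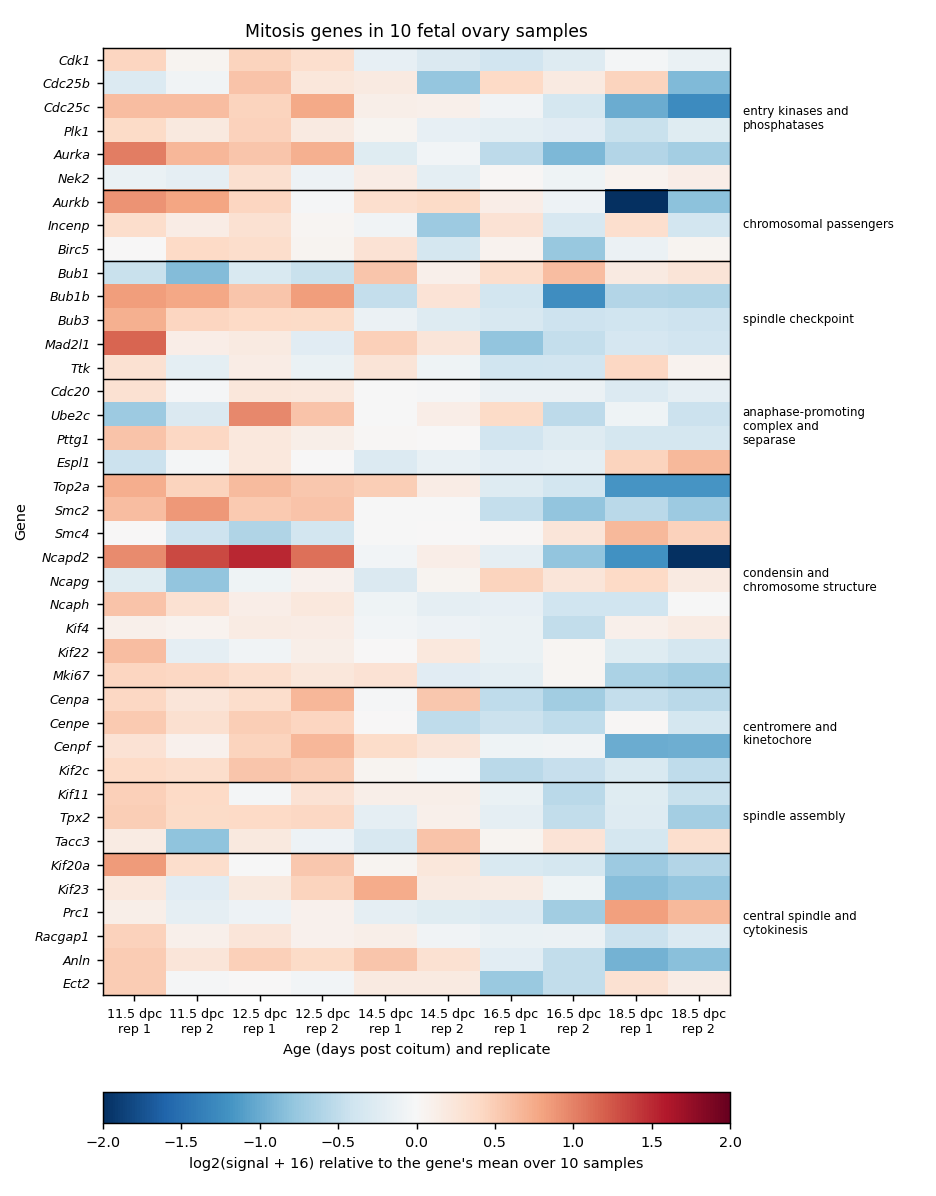
The heat map shows log2(signal + 16) of each of the 40 genes in each of the 10 samples, relative to that gene's mean over the 10 samples, with the genes grouped by role and values past the ends of the colour scale drawn in the end colour. Most rows turn from red at 11.5 and 12.5 dpc to blue at 16.5 and 18.5 dpc. Bub1, Espl1, Smc4, Ncapg and Prc1, which were called upward, are red at 18.5 dpc. Ttk, Ect2, Kif4 and Nek2, which were not called upward, also lie above their means in both 18.5 dpc samples.

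Sample by sample, the median of the 40 genes, each taken relative to its own mean, was 0.43 and 0.17 (log2) at 11.5 dpc and 0.33 and 0.22 at 12.5 dpc. The 14.5 dpc samples were at 0.02 and 0.00, followed by -0.18 and -0.36 at 16.5 dpc and -0.32 and -0.37 at 18.5 dpc. All 4 samples of the first 2 ages lay above both 14.5 dpc samples, and all 4 samples of the last 2 ages lay below them. The samples of 16.5 and 18.5 dpc overlapped. The SD between the 2 samples of an age, pooled over the ages, was 0.107. The highest of the 5 age means was that of 11.5 dpc for 18 genes and that of 12.5 dpc for 13 more, and the lowest was that of 16.5 dpc for 14 genes and of 18.5 dpc for 17. Among all genes the highest mean was at 11.5 dpc for 21.8% and at 12.5 dpc for 18.3%, and the lowest was at 16.5 dpc for 19.1% and at 18.5 dpc for 24.4%.

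The promoters of these genes are shown next because genes of mitosis are known to share 2 short elements: the cell cycle genes homology region (CHR), where the repressor complex DREAM and the activator MYBL2 act through the MuvB core, and the CCAAT box bound by NF-Y. Promoter windows from RefSeq (GRCm38.p6), running from 250 bases before a gene's start to 50 bases after it, were at hand for 34 of the 40 genes. They were searched on both strands for the CHR letters TTTGAA and for CCAAT, which can share at most 1 base. CHR letters stood in 25 of the 34 windows (73.5%), against 14.6% of the 10087 tested genes with a window. CCAAT stood in 27 (79.4%), against 42.9%, and both in 23 (67.6%), against 5.99%. These matches are descriptions of letters, not measured binding.

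The following stretches are the 150 bases just before the start, 5′ to 3′ on the gene's strand, with CHR letters and CCAAT boxes on either strand in capitals (for CHR, TTTGAA or its reverse complement TTCAAA; for the box, CCAAT or its reverse complement ATTGG). Top2a, Kif11 and Ncapd2 fell between 11.5 and 18.5 dpc, Espl1, Prc1 and Bub1 rose, Cdk1 fell from 12.5 to 16.5 dpc, and Cdc20 was called in no comparison.
Top2a (chr11:99024190-99024339, minus strand): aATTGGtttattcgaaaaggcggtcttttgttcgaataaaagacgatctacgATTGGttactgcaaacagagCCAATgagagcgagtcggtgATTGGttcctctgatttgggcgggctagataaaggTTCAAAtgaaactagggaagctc
Kif11 (chr19:37376232-37376381, plus strand): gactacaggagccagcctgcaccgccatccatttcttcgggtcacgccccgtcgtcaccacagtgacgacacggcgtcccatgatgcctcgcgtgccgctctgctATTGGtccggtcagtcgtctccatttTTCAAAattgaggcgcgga
Ncapd2 (chr6:125191587-125191736, minus strand): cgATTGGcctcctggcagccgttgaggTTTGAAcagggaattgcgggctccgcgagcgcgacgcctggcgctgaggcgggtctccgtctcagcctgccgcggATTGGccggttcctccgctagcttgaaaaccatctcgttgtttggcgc
Espl1 (chr15:102296143-102296292, plus strand): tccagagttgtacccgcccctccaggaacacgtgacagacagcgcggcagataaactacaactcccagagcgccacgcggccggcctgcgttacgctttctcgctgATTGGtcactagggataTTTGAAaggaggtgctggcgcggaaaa
Prc1 (chr7:80294326-80294475, plus strand): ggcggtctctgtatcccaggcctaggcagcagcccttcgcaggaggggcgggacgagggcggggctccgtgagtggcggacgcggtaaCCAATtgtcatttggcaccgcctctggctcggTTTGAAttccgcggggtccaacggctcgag
Bub1 (chr2:127831860-127832009, minus strand): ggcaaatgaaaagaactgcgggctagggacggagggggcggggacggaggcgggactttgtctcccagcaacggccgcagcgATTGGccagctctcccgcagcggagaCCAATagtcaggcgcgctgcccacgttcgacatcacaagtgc
Cdk1 (chr10:69352913-69353062, minus strand): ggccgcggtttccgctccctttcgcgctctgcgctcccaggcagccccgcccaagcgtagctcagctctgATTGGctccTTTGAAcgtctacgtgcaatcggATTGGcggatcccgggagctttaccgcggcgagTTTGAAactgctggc
Cdc20 (chr4:118437344-118437493, minus strand): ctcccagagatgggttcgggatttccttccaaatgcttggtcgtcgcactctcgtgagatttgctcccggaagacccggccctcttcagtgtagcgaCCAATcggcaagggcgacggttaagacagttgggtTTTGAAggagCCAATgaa

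Counted from the start, the CHR letters began at -179 (before the printed stretch) and -23 in Top2a, -19 in Kif11, -18 in Cdc20, -27 in Espl1, -30 in Prc1 (from the second of its RefSeq starts) and -123 in Ncapd2, and at -71 and -15 in Cdk1. The Bub1 window held CCAAT boxes at -68 and -42 and no CHR letters. The letters did not separate the genes by direction. CHR letters were in 15 of the 17 falling genes with a window (88.2%), in 3 of the 4 rising genes (75%), and in 7 of the 13 genes not called between 11.5 and 18.5 dpc (53.8%). CCAAT was in 13 of the 17 (76.5%), in 4 of the 4 (100%) and in 10 of the 13 (76.9%). Espl1 and Prc1, which rose, carried both elements close to the start, as Top2a and Kif11, which fell, did.

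Of the 6 kinases and phosphatases that start mitosis, 3 fell from 11.5 to 18.5 dpc, 3 fell from 12.5 to 16.5 dpc, and none rose in either comparison. Cdk1, the kinase that drives entry into mitosis (array A), had signals of 640.7 and 489.2 at 11.5 dpc, 647.8 and 600.3 at 12.5 dpc, 416.5 and 379.7 at 14.5 dpc, 356.3 and 390.4 at 16.5 dpc, then 456.1 and 427.7 at 18.5 dpc. Both 12.5 dpc samples lay above all samples of the 3 later ages, and the 11.5 dpc samples were also above them but far apart. Cdk1 fell 1.64-fold from 12.5 to 16.5 dpc (log2 change -0.72 ± 0.16, SE; adjusted p = 0.023), and over the whole course it did not pass (adjusted p = 0.20). The 16.5 dpc call was lost without any 1 of the 4 samples of 12.5 and 16.5 dpc (highest adjusted p = 0.15).

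Aurka, the kinase of spindle poles (array A), had signals of 273.2 and 209.5 at 11.5 dpc, 192.8 and 217 at 12.5 dpc, 104.4 and 120.5 at 14.5 dpc, 82.9 and 59.9 at 16.5 dpc, then 78.4 and 72.4 at 18.5 dpc. All 4 early samples were above both 14.5 dpc samples, which were above all 4 late samples. Aurka fell 2.55-fold from 12.5 to 16.5 dpc (log2 change -1.35 ± 0.20, SE; adjusted p = 0.0019) and 2.80-fold from 11.5 to 18.5 dpc (log2 change -1.48 ± 0.20, SE; adjusted p = 0.00048). Both calls held with each of the 10 samples left out. Cdc25c, the phosphatase that removes the inhibiting phosphates from Cdk1 (array A), had signals of 141.7 and 140.9 at 11.5 dpc, 123.2 and 157.3 at 12.5 dpc, 95.5 and 93.4 at 14.5 dpc, 81.2 and 64.1 at 16.5 dpc, then 35.6 and 26.8 at 18.5 dpc. The 2 samples of 18.5 dpc were the lowest, below both 16.5 dpc samples, and all 4 early samples were the highest. Cdc25c fell 3.35-fold (log2 change -1.74 ± 0.20, SE; adjusted p = 0.00017), in each of the 10 fits with a sample left out too, or 2.16-fold with 64 in place of 16 added to the signal. It also fell 1.76-fold from 12.5 to 16.5 dpc (log2 change -0.82 ± 0.20, SE; adjusted p = 0.033), a call lost without any 1 of the samples of those 2 ages (highest adjusted p = 0.23).

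Plk1, a kinase of centrosomes, kinetochores and the midzone (array A), had signals of 290.4 and 252.2 at 11.5 dpc, 304.3 and 248.1 at 12.5 dpc, 225.9 and 192.1 at 14.5 dpc, 188.4 and 184.1 at 16.5 dpc, then 155.3 and 182.6 at 18.5 dpc. The samples of 11.5 and 12.5 dpc overlapped, and from 12.5 dpc on each age lay below the one before it. It fell 1.55-fold (log2 change -0.64 ± 0.17, SE; adjusted p = 0.028). The call was lost without 11.5 dpc replicate 1 or either 18.5 dpc sample (highest adjusted p = 0.20). A second Plk1 probe set also fell (log2 change -1.53 ± 0.23, SE; adjusted p = 0.0011), and another did not pass (log2 change -0.25 ± 0.23, SE; adjusted p = 0.52). The remaining 2 were not called: Cdc25b, another Cdk1 phosphatase, ranged from 33.6 to 119.5 with samples of 1 age far apart, and Nek2, a centrosome kinase, stayed between 109.9 and 164.4 (limma's F test, adjusted p = 0.56 and 0.73).

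**Figure D2:**
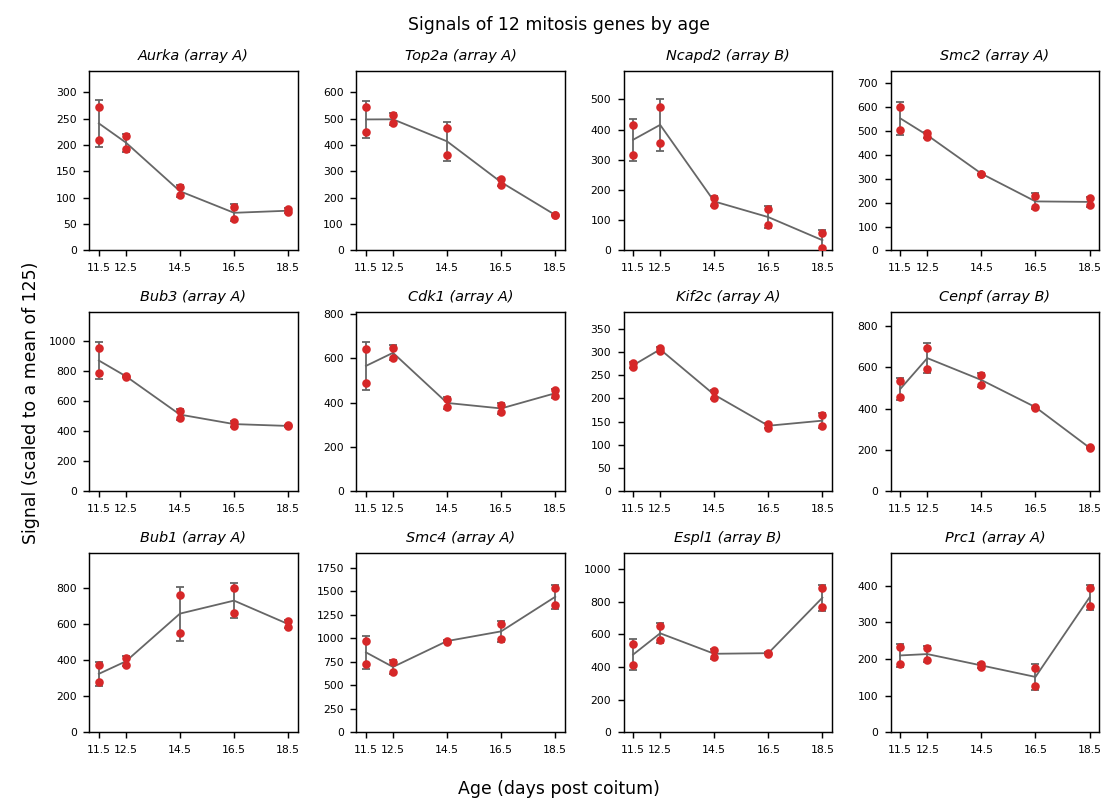
Each panel plots 1 of 12 mitosis genes, with age in dpc across and the scaled signal upwards from 0; points are the 2 samples of an age, the line joins their means and bars are the SD. The first 8 genes decline, Aurka and Smc2 until 16.5 dpc and Top2a and Cenpf until 18.5 dpc, while Bub1, Smc4, Espl1 and Prc1 end higher than they began.

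The chromosomal passengers ride on centromeres and correct faulty attachments, and 1 of the 3 fell. Aurkb, their kinase (array C), had signals of 272.7 and 251.9 at 11.5 dpc, 192.4 and 136.3 at 12.5 dpc, 178.9 and 185.1 at 14.5 dpc, 153.4 and 127.8 at 16.5 dpc, then 22.2 and 71.3 at 18.5 dpc. The 18.5 dpc samples were the lowest of the 10 and differed widely from each other. Aurkb fell 4.82-fold (log2 change -2.27 ± 0.40, SE; adjusted p = 0.0027), 3.19-fold without 18.5 dpc replicate 1 and 7.28-fold without 18.5 dpc replicate 2, and 3.02-fold with 64 added to the signal. The Aurkb probe set of array A (log2 change -0.88 ± 0.34, SE; adjusted p = 0.11) went the same way and did not pass, so the call rests on array C alone. Incenp, the scaffold that activates Aurkb (array C), had signals of 512.8 and 441 at 11.5 dpc, 495.9 and 409.8 at 12.5 dpc, 375.4 and 233.3 at 14.5 dpc, 489.7 and 315.2 at 16.5 dpc, then 507 and 305.8 at 18.5 dpc. The samples of each age from 14.5 dpc on were far apart, and no comparison passed (limma's F test, adjusted p = 0.49). Birc5, also called survivin, ranged from 137 to 327.1 and was not called (limma's F test, adjusted p = 0.47).

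Of the 5 genes of the spindle checkpoint 3 fell, 1 rose and 1 was not called between 11.5 and 18.5 dpc. Bub3, which carries the checkpoint kinases to kinetochores (array A), had signals of 959.7 and 786.6 at 11.5 dpc, 771.1 and 765.2 at 12.5 dpc, 537.6 and 486.6 at 14.5 dpc, 464 and 433.5 at 16.5 dpc, then 439.5 and 433.2 at 18.5 dpc. All 4 early samples were above all 6 later ones. A dimmer Bub3 probe set on array B was not called from 11.5 to 18.5 dpc (log2 change -0.05 ± 0.24, SE, with limma's adjusted p = 0.92). The array A probe set fell 1.69-fold from 12.5 to 16.5 dpc (log2 change -0.76 ± 0.15, SE; adjusted p = 0.011) and 1.96-fold over the whole course (log2 change -0.97 ± 0.15, SE; adjusted p = 0.0012). The second of these held with each sample left out, and the first was lost without either 12.5 dpc sample or 16.5 dpc replicate 2 (highest adjusted p = 0.0996).

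Bub1b, which encodes BubR1, the part of the checkpoint complex that blocks Cdc20 (array B), had signals of 439.7 and 421.8 at 11.5 dpc, 358.8 and 440.4 at 12.5 dpc, 166.9 and 294 at 14.5 dpc, 182.5 and 91.6 at 16.5 dpc, then 154.6 and 153.3 at 18.5 dpc. The early samples were all above the later ones, and the 2 samples of 14.5 dpc and of 16.5 dpc were each far apart. Bub1b fell 2.63-fold from 11.5 to 18.5 dpc (log2 change -1.39 ± 0.30, SE; adjusted p = 0.0072), with each sample left out too. It fell 2.83-fold from 12.5 to 16.5 dpc (log2 change -1.5 ± 0.30, SE; adjusted p = 0.010), lost without either 12.5 dpc sample or 16.5 dpc replicate 2 (highest adjusted p = 0.12). Mad2l1, which encodes the Mad2 protein that inhibits Cdc20 (array A), had signals of 996.3 and 478.4 at 11.5 dpc, 491.9 and 366.8 at 12.5 dpc, 612.7 and 518.1 at 14.5 dpc, 244.1 and 306.9 at 16.5 dpc, then 340.5 and 330.5 at 18.5 dpc. The 11.5 dpc replicate 1 was the highest by far, and all 4 late samples were below all the others. Mad2l1 fell 2.01-fold (log2 change -1.01 ± 0.27, SE; adjusted p = 0.028), a call lost without 11.5 dpc replicate 1 or either 18.5 dpc sample (highest adjusted p = 0.17).

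Bub1, the checkpoint kinase that marks centromeres with phosphorylated histone H2A (array A), went the other way, with signals of 371.1 and 275.6 at 11.5 dpc, 411.8 and 373.4 at 12.5 dpc, 762.2 and 551.5 at 14.5 dpc, 661.7 and 796.3 at 16.5 dpc, then 583.1 and 615.3 at 18.5 dpc. All 6 samples from 14.5 dpc on were above all 4 early ones. Bub1 rose 1.82-fold from 12.5 to 16.5 dpc (log2 change 0.86 ± 0.19, SE; adjusted p = 0.021) and 1.83-fold from 11.5 to 18.5 dpc (log2 change 0.87 ± 0.19, SE; adjusted p = 0.0099). The first call was lost without either 12.5 dpc sample or 16.5 dpc replicate 2 (highest adjusted p = 0.18), and the second without 11.5 dpc replicate 2 or either 18.5 dpc sample (highest adjusted p = 0.076). The other Bub1 probe sets were much dimmer and were not called (log2 change 0.38 ± 0.24, SE; adjusted p = 0.33 and log2 change -0.42 ± 0.27, SE; adjusted p = 0.33). Ttk, which encodes the checkpoint kinase Mps1, ranged from 173.3 to 317.6 and was not called (limma's F test, adjusted p = 0.23).

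Of the 4 genes that act at the exit from metaphase 1 fell and 1 rose. Pttg1, which encodes securin, the inhibitor of separase (array A), had signals of 582.8 and 522.1 at 11.5 dpc, 450.8 and 420.4 at 12.5 dpc, 393.3 and 388.3 at 14.5 dpc, 293 and 320.4 at 16.5 dpc, then 300.7 and 299.2 at 18.5 dpc. The samples of each age were close together and the ages descended in order to 16.5 dpc, where the 16.5 and 18.5 dpc samples overlapped. Pttg1 fell 1.80-fold (log2 change -0.85 ± 0.14, SE; adjusted p = 0.0024), with each sample left out too. Espl1, which encodes separase itself (array B), had signals of 409.8 and 541.3 at 11.5 dpc, 650.2 and 562.2 at 12.5 dpc, 460.2 and 501.2 at 14.5 dpc, 480.9 and 487.8 at 16.5 dpc, then 767.5 and 880.7 at 18.5 dpc. The 2 samples of 18.5 dpc were above all 8 others. Espl1 rose 1.72-fold from 11.5 to 18.5 dpc (log2 change 0.78 ± 0.19, SE; adjusted p = 0.015), a call lost without 11.5 dpc replicate 1 or either 18.5 dpc sample (highest adjusted p = 0.13). By these probe sets securin and separase RNA ended on opposite sides of their 11.5 dpc levels. A second Pttg1 probe set, on array C, was not called from 11.5 to 18.5 dpc (log2 change -0.26 ± 0.29, SE, with limma's adjusted p = 0.61). The fall of Pttg1 thus rests on array A alone.

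Cdc20, the activator of the anaphase-promoting complex (array A), had signals of 649.4 and 514 at 11.5 dpc, 615.9 and 607.1 at 12.5 dpc, 521.4 and 516.8 at 14.5 dpc, 482 and 483.4 at 16.5 dpc, then 431.1 and 460.6 at 18.5 dpc. Both 18.5 dpc samples were the lowest of the 10, but the distance to 11.5 dpc was small (log2 change -0.36 ± 0.15, SE; adjusted p = 0.13) and no comparison passed. Ube2c, the complex's ubiquitin-conjugating enzyme, was dim, between 24.5 and 114.2, and was not called (limma's F test, adjusted p = 0.080).

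Condensin and the other chromosome genes moved in both directions: 4 of 9 fell, 2 rose and 3 were not called between 11.5 and 18.5 dpc. Top2a, the topoisomerase that untangles sister chromatids (array A), had signals of 545.8 and 448.3 at 11.5 dpc, 513.2 and 481.8 at 12.5 dpc, 465.4 and 362.2 at 14.5 dpc, 269.3 and 248.2 at 16.5 dpc, then 134.8 and 134.2 at 18.5 dpc. All 4 late samples were below the 6 earlier ones, and both 18.5 dpc samples were below both 16.5 dpc samples. Top2a fell 3.39-fold over the course (log2 change -1.76 ± 0.17, SE; adjusted p = 4.5e-05), the smallest p of the 40 genes, and kept the call with each sample left out. It fell 1.87-fold from 12.5 to 16.5 dpc (log2 change -0.90 ± 0.17, SE; adjusted p = 0.0085), lost without either 12.5 dpc sample or 16.5 dpc replicate 2 (highest adjusted p = 0.082). From 16.5 to 18.5 dpc it fell again, 1.82-fold (log2 change -0.87 ± 0.17, SE; adjusted p = 0.044), lost without any 1 of the samples of 12.5, 16.5 and 18.5 dpc (highest adjusted p = 0.26).

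Smc2, an ATPase arm shared by condensin I and II (array A), had signals of 503.6 and 602.2 at 11.5 dpc, 473 and 491.7 at 12.5 dpc, 321.5 and 321.6 at 14.5 dpc, 229.1 and 181.2 at 16.5 dpc, then 217.4 and 188.7 at 18.5 dpc. The ages descended without overlap to 16.5 dpc and then levelled, with 16.5 and 18.5 dpc overlapping. Smc2 fell 2.27-fold from 12.5 to 16.5 dpc (log2 change -1.18 ± 0.17, SE; adjusted p = 0.0016) and 2.59-fold from 11.5 to 18.5 dpc (log2 change -1.37 ± 0.17, SE; adjusted p = 0.00025), both with each sample left out too. Smc2 probe sets on array C were dimmer, with samples of 1 age often far apart. From 11.5 to 18.5 dpc they were not called (log2 change -0.03 ± 0.67 and -0.01 ± 0.65, SE, with limma's adjusted p = 0.99 for each). Smc4, the partner arm of Smc2 (array A), had signals of 975.4 and 723.8 at 11.5 dpc, 638.6 and 750.4 at 12.5 dpc, 965 and 974.6 at 14.5 dpc, 993.9 and 1151.9 at 16.5 dpc, then 1529.1 and 1351.5 at 18.5 dpc. Both 18.5 dpc samples were above all 8 others, and the lowest values were at 12.5 dpc and in 11.5 dpc replicate 2. Smc4 rose 1.70-fold (log2 change 0.76 ± 0.17, SE; adjusted p = 0.011), lost without 18.5 dpc replicate 1 (adjusted p = 0.11). The 2 arms of 1 complex were therefore called in opposite directions by the same comparison, each through 1 probe set of array A.

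Ncapd2, the HEAT-repeat subunit that is particular to condensin I (array B), had signals of 316.7 and 416.1 at 11.5 dpc, 476.3 and 355.3 at 12.5 dpc, 150.4 and 173.9 at 14.5 dpc, 136 and 84.4 at 16.5 dpc, then 58.5 and 8.9 at 18.5 dpc. The 4 early samples were all above the 14.5 dpc samples, those above the 16.5 dpc samples, and the 18.5 dpc samples were the lowest and differed from each other by several fold. Ncapd2 fell 3.46-fold from 12.5 to 16.5 dpc (log2 change -1.79 ± 0.41, SE; adjusted p = 0.021), lost without either 12.5 dpc sample or 16.5 dpc replicate 2 (highest adjusted p = 0.19). It fell 8.80-fold over the course (log2 change -3.14 ± 0.41, SE; adjusted p = 0.00028). The size of that fall depends on dim signals: 15.2-fold without 18.5 dpc replicate 1, and 5.09-fold when replicate 2 of that age was left out, 15.0-fold with 1 added to the signal and 4.52-fold with 64 added, and it was called in each of these.

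Ncapg, the other HEAT-repeat subunit of condensin I (array B), had signals of 381.6 and 255.1 at 11.5 dpc, 427 and 480.4 at 12.5 dpc, 367.7 and 468.2 at 14.5 dpc, 622.9 and 539.1 at 16.5 dpc, then 601.1 and 513.5 at 18.5 dpc. The 18.5 dpc samples were above the 11.5 dpc samples and overlapped those of 16.5 dpc. Ncapg rose 1.74-fold (log2 change 0.80 ± 0.22, SE; adjusted p = 0.027), lost without 11.5 dpc replicate 2 or either 18.5 dpc sample (highest adjusted p = 0.18), and it did not pass over the 5 ages (limma's F test, adjusted p = 0.064). Ncaph, the kleisin that closes the ring of condensin I, went from 110.6 and 89.3 at 11.5 dpc to 48.4 and 68.3 at 18.5 dpc without passing (log2 change -0.65 ± 0.22, SE; adjusted p = 0.065). A dimmer Ncaph probe set on the same array was called downward. It passed the filter, a signal of 50 on 2 arrays, only through the 11.5 dpc samples. It therefore had to be lower later, and no size of change is given for it. So within condensin I the subunits were not called in 1 direction.

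Mki67, which encodes the Ki-67 antigen that coats mitotic chromosomes and is the usual stain for dividing cells (array A), had signals of 445.7 and 438.9 at 11.5 dpc, 415.1 and 385.5 at 12.5 dpc, 403.5 and 277.4 at 14.5 dpc, 281.4 and 333.8 at 16.5 dpc, then 204.3 and 195.5 at 18.5 dpc. Both 18.5 dpc samples were well below all others, and the ages between overlapped. It fell 2.12-fold (log2 change -1.09 ± 0.18, SE; adjusted p = 0.0021), with each sample left out too. A dimmer Mki67 probe set on the same array was not called (log2 change 0.03 ± 0.28, SE; adjusted p = 0.96). The 2 chromosome-arm kinesins were not called: Kif4 ranged from 94.9 to 159.3, with its lowest value in 16.5 dpc replicate 2, and Kif22 from 634.1 to 1251.7 (limma's F test, adjusted p = 0.22 and 0.40).

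**Figure D3:**
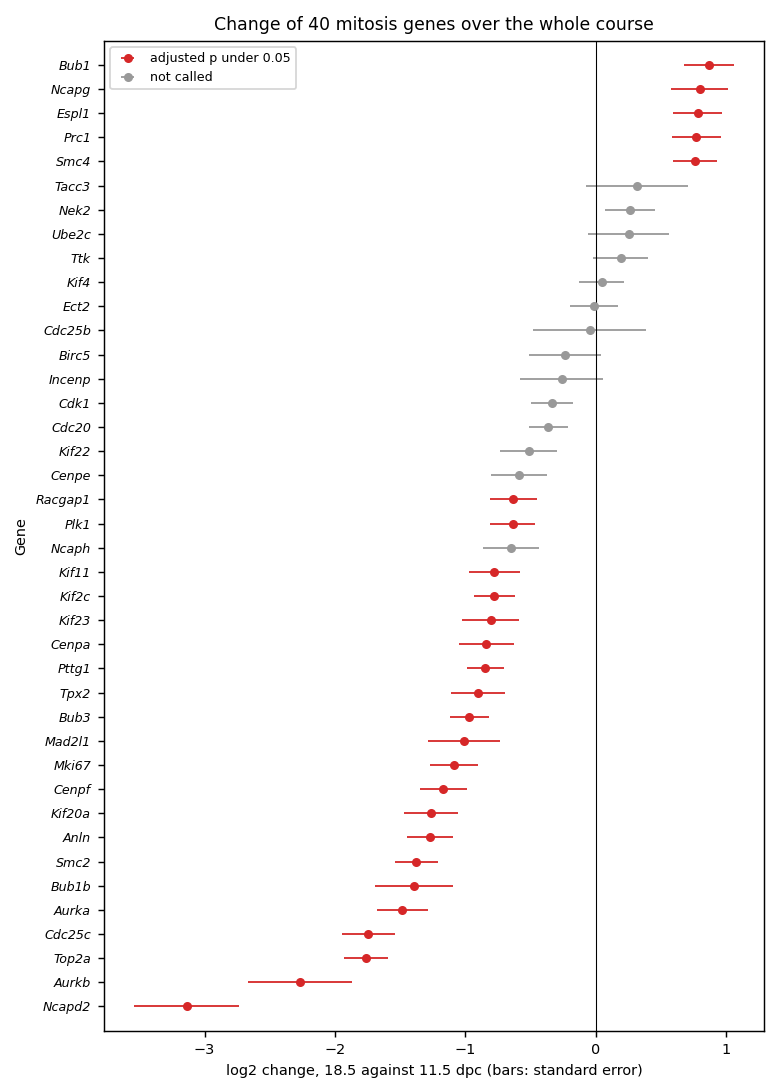
Each of the 40 genes is a point at its log2 change from 11.5 to 18.5 dpc (horizontal axis), with its standard error as a bar, red where limma's adjusted p was under 0.05. There were 21 red points left of 0, from Racgap1 and Plk1 at -0.63 and -0.64 to Ncapd2 at -3.14, and 5 right of it, between 0.76 and 0.87.

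All 4 genes of the centromere and kinetochore varied over the ages, 3 of them falling from 11.5 to 18.5 dpc and 3 from 12.5 to 16.5 dpc. Cenpa, the histone H3 variant that marks the centromere (array A), had signals of 176 and 154.2 at 11.5 dpc, 167.6 and 212.3 at 12.5 dpc, 125.3 and 192 at 14.5 dpc, 85.4 and 72.9 at 16.5 dpc, then 87.5 and 82.8 at 18.5 dpc. All 4 late samples were below the 6 earlier ones, and the 14.5 dpc samples still overlapped the early ones. Cenpa fell 2.16-fold from 12.5 to 16.5 dpc (log2 change -1.11 ± 0.21, SE; adjusted p = 0.0092) and 1.79-fold over the course (log2 change -0.84 ± 0.21, SE; adjusted p = 0.020). The first call was lost without 12.5 dpc replicate 2 or 16.5 dpc replicate 2 (highest adjusted p = 0.0995), the second without 11.5 dpc replicate 1 or either 18.5 dpc sample (highest adjusted p = 0.11).

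Cenpe, the kinesin that moves chromosomes to the spindle equator (array B), had signals of 592.3 and 508.8 at 11.5 dpc, 579.3 and 549.7 at 12.5 dpc, 408.1 and 281.3 at 14.5 dpc, 297.5 and 279.2 at 16.5 dpc, then 412.3 and 314.5 at 18.5 dpc. The 4 early samples were above the 6 later ones, and the 14.5 dpc samples overlapped those of both later ages. Cenpe fell 1.91-fold from 12.5 to 16.5 dpc (log2 change -0.93 ± 0.21, SE; adjusted p = 0.022), lost without any 1 of the samples of those ages (highest adjusted p = 0.14), and did not pass over the whole course (adjusted p = 0.085). Cenpf, a large protein of the outer kinetochore (array B), had signals of 531.7 and 457.3 at 11.5 dpc, 592.5 and 694.9 at 12.5 dpc, 561.4 and 514.4 at 14.5 dpc, 405 and 408.4 at 16.5 dpc, then 209.2 and 212.1 at 18.5 dpc. It stayed high through 14.5 dpc, and both 18.5 dpc samples were below both 16.5 dpc samples, which were below all earlier ones. Cenpf fell 2.25-fold from 11.5 to 18.5 dpc (log2 change -1.17 ± 0.18, SE; adjusted p = 0.00099), with each sample left out too. From 16.5 to 18.5 dpc it fell 1.87-fold (log2 change -0.90 ± 0.18, SE; adjusted p = 0.043), lost without any 1 of the samples from 12.5 to 18.5 dpc (highest adjusted p = 0.28) and with the replicate number as a block (adjusted p = 0.066).

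Kif2c, the kinesin that takes microtubule ends apart at the centromere (array A), had signals of 275.7 and 266.9 at 11.5 dpc, 309.6 and 301.6 at 12.5 dpc, 215.2 and 200.8 at 14.5 dpc, 137.1 and 145.3 at 16.5 dpc, then 163.8 and 140.5 at 18.5 dpc. Early, middle and late samples formed 3 separate tiers, with 16.5 and 18.5 dpc overlapping. Kif2c fell 2.05-fold from 12.5 to 16.5 dpc (log2 change -1.03 ± 0.16, SE; adjusted p = 0.0023), with each sample left out too. It fell 1.71-fold from 11.5 to 18.5 dpc (log2 change -0.78 ± 0.16, SE; adjusted p = 0.0056), lost without 18.5 dpc replicate 2 (adjusted p = 0.074).

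Of the 3 genes of spindle assembly 2 fell. Kif11, the kinesin that pushes the spindle poles apart (array A), had signals of 209.3 and 199.3 at 11.5 dpc, 141.5 and 183.3 at 12.5 dpc, 160.0 and 161 at 14.5 dpc, 131.8 and 95.5 at 16.5 dpc, then 121.9 and 104 at 18.5 dpc. The 11.5 dpc samples were the highest, and those of 16.5 and 18.5 dpc overlapped below all others. It fell 1.71-fold (log2 change -0.78 ± 0.19, SE; adjusted p = 0.018), lost without 11.5 dpc replicate 1 or either 18.5 dpc sample (highest adjusted p = 0.13). Tpx2, which activates Aurka on the spindle (array B), had signals of 484.4 and 449.2 at 11.5 dpc, 453.2 and 457.9 at 12.5 dpc, 300.5 and 368 at 14.5 dpc, 297.4 and 236.7 at 16.5 dpc, then 282.3 and 207.8 at 18.5 dpc. All 4 early samples were above all 6 later ones. Tpx2 fell 1.87-fold (log2 change -0.90 ± 0.21, SE; adjusted p = 0.011), lost without 11.5 dpc replicate 1 or 18.5 dpc replicate 2 (highest adjusted p = 0.13), and a second probe set on array B fell as well (log2 change -0.90 ± 0.22, SE; adjusted p = 0.015). Aurka and its activator thus both fell. Tacc3, which ties microtubule bundles together, ranged from 45.4 to 143.8 with the samples of most ages far apart and was not called (limma's F test, adjusted p = 0.81).

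Of the 6 genes of the central spindle and cytokinesis 4 fell, 1 rose and 1 varied without a call in the 6 pairs of ages tested. Anln, which encodes anillin, the scaffold of the contractile ring (array A), had signals of 321.3 and 263 at 11.5 dpc, 312.9 and 291.4 at 12.5 dpc, 332.1 and 275.1 at 14.5 dpc, 188.2 and 152.7 at 16.5 dpc, then 106.1 and 116.8 at 18.5 dpc. The 6 samples through 14.5 dpc overlapped and all lay above the 16.5 dpc samples, which lay above the 18.5 dpc samples. Anln fell 2.41-fold (log2 change -1.27 ± 0.18, SE; adjusted p = 0.00066), with each sample left out too, and 1.71-fold from 12.5 to 16.5 dpc (log2 change -0.78 ± 0.18, SE; adjusted p = 0.023), lost without either 12.5 dpc sample or 16.5 dpc replicate 2 (highest adjusted p = 0.19).

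Kif20a, the kinesin that brings the passengers to the midzone (array A), had signals of 908.5 and 636.2 at 11.5 dpc, 493.3 and 725 at 12.5 dpc, 514.7 and 581.3 at 14.5 dpc, 397.8 and 384 at 16.5 dpc, then 292.2 and 323.7 at 18.5 dpc. Both 18.5 dpc samples were the lowest, below both 16.5 dpc samples. Kif20a fell 2.40-fold (log2 change -1.26 ± 0.21, SE; adjusted p = 0.0017), with each sample left out too, and its other probe set fell alike (log2 change -1.32 ± 0.20, SE; adjusted p = 0.0012). Kif23, the motor of the centralspindlin complex (array A), had signals of 210.8 and 151.5 at 11.5 dpc, 208.4 and 252.3 at 12.5 dpc, 313.1 and 206.2 at 14.5 dpc, 203.1 and 168.7 at 16.5 dpc, then 92.3 and 98.9 at 18.5 dpc. Both 18.5 dpc samples were below all 8 others, and the highest value was at 14.5 dpc. Kif23 fell 1.75-fold (log2 change -0.81 ± 0.22, SE; adjusted p = 0.029), lost without 11.5 dpc replicate 1 or either 18.5 dpc sample (highest adjusted p = 0.15). Its dimmer probe sets on array C were not called (log2 change 0.21 ± 0.36, SE; adjusted p = 0.76, and for the other log2 change -0.21 ± 0.53, SE; adjusted p = 0.84).

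Racgap1, the partner of Kif23 in centralspindlin (array A), had signals of 210.2 and 159.7 at 11.5 dpc, 177.6 and 158.5 at 12.5 dpc, 161.5 and 140.2 at 14.5 dpc, 132.9 and 135.6 at 16.5 dpc, then 105.8 and 120.0 at 18.5 dpc. The decline was shallow, with the 18.5 dpc samples below all others. Racgap1 fell 1.55-fold (log2 change -0.63 ± 0.18, SE; adjusted p = 0.035), lost without 11.5 dpc replicate 1 or either 18.5 dpc sample (highest adjusted p = 0.20), and did not pass over the 5 ages (limma's F test, adjusted p = 0.12). Ect2, the exchange factor that centralspindlin recruits to activate RhoA (array A), had signals of 508.4 and 347.5 at 11.5 dpc, 354.6 and 339.8 at 12.5 dpc, 400.6 and 404.4 at 14.5 dpc, 204.2 and 246.9 at 16.5 dpc, then 439.9 and 395.3 at 18.5 dpc. It was low only at 16.5 dpc, where both samples lay below all 8 others, and both 18.5 dpc samples were back within the range of the earlier ages. Ect2 passed the test over the 5 ages (limma's F test, adjusted p = 0.025), though not without any 1 of the samples of 12.5, 16.5 or 18.5 dpc (highest adjusted p = 0.18), and none of the 6 pairs of ages tested passed. The step from 11.5 to 16.5 dpc was not among those pairs.

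Prc1, the protein that bundles antiparallel microtubules of the central spindle (array A), had signals of 232.6 and 186.9 at 11.5 dpc, 197.5 and 229.4 at 12.5 dpc, 186.7 and 178.2 at 14.5 dpc, 175.5 and 126.7 at 16.5 dpc, then 392.6 and 344 at 18.5 dpc. It drifted down to 16.5 dpc, and both 18.5 dpc samples were above all 8 others. Prc1 rose 2.32-fold from 16.5 to 18.5 dpc (log2 change 1.21 ± 0.19, SE; adjusted p = 0.015), lost without 16.5 dpc replicate 2 or either 18.5 dpc sample (highest adjusted p = 0.16). It rose 1.71-fold from 11.5 to 18.5 dpc (log2 change 0.77 ± 0.19, SE; adjusted p = 0.017), lost without 11.5 dpc replicate 2 or either 18.5 dpc sample (highest adjusted p = 0.13). A Prc1 probe set on array B had 160.7 and 172.6 at 11.5 dpc, 198.8 and 234.9 at 12.5 dpc, 101.7 and 112 at 14.5 dpc, 127.6 and 65 at 16.5 dpc, then 208.6 and 215.3 at 18.5 dpc. It too was low at 14.5 and 16.5 dpc and higher at 18.5 dpc, without passing in that step (log2 change 1.08 ± 0.27, SE; adjusted p = 0.10). It fell from 12.5 to 16.5 dpc (log2 change -1.11 ± 0.27, SE; adjusted p = 0.030), where the array A probe set did not pass (log2 change -0.47 ± 0.19, SE; adjusted p = 0.18), and was not called from 11.5 to 18.5 dpc (log2 change 0.32 ± 0.27, SE; adjusted p = 0.48).

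Several mitosis genes were measured by more than 1 probe set, and these give a second reading of the gene. Of the 18 genes with several tested probe sets, 11 had all of them on 1 side of 0 from 11.5 to 18.5 dpc. In 4 (Cdc25c, Kif20a, Plk1 and Tpx2) at least 2 probe sets fell by the test, in 12 exactly 1 was called, and in 0 were probe sets called in both directions. For Ncaph the called one was the dimmer probe set, which passed the filter only through 11.5 dpc. Probe sets on 1 side of 0 did not always change alike. Those of Bub3 and Smc2 that were not called lay near 0 (log2 change -0.05 for Bub3, -0.03 and -0.01 for Smc2). Bub1, Ncapg and Prc1, each called upward, had no second probe set called, and Bub1 and Ncapg had another on the other side of 0. So had Kif23 and Mki67, each called downward. Incenp, Kif22 and Tacc3 also had probe sets on both sides.

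**Figure D4:**
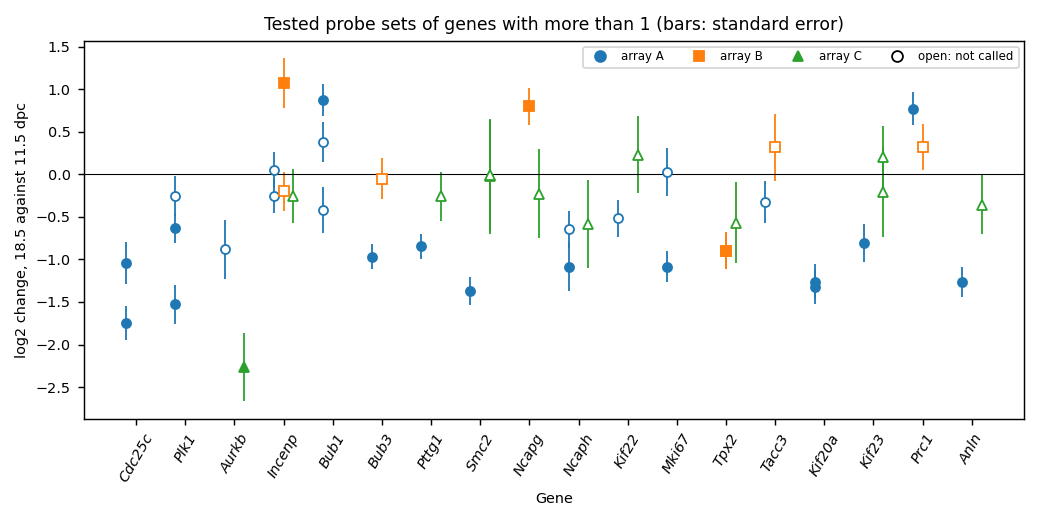
For the 18 genes with more than 1 tested probe set, each probe set is plotted at its log2 change from 11.5 to 18.5 dpc (vertical axis) with its standard error, by array type, filled where called. The probe sets of Cdc25c, Plk1 and Kif20a all lie below 0, while those of Bub1, Ncapg, Incenp, Kif22, Kif23, Mki67 and Tacc3 lie on both sides of it.

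Other genes of the cell cycle, from lists that leave out the 40, were called mostly downward. Among all genes 8.37% fell and 9.14% rose from 11.5 to 18.5 dpc. Of 48 other mitotic genes tested 13 fell and 0 rose from 11.5 to 18.5 dpc (4 up and 27 down at an unadjusted p under 0.05 in limma), with a median log2 change of -0.49. The smallest adjusted p belonged to Pbk, a mitotic kinase, from 794 ± 10.5 to 254 ± 26.6 (mean ± SD, n = 2; log2 change -1.59 ± 0.19, SE; adjusted p = 0.00015), and to Nde1, a dynein regulator at kinetochores (log2 change -1.40 ± 0.17, SE; adjusted p = 0.00030). Tubb5, a beta-tubulin (log2 change -1.01 ± 0.14, SE; adjusted p = 0.00074), and Stmn1, which destabilises microtubules (log2 change -1.0 ± 0.15, SE; adjusted p = 0.0011), followed. Of 42 DNA replication genes 15 fell and 1, the chromatin assembly factor Chaf1a, rose (log2 change 0.58 ± 0.17, SE; adjusted p = 0.035), with a median of -0.42. The leading ones were Rrm2 (log2 change -1.74 ± 0.17, SE; adjusted p = 4.5e-05) and Rrm1 (log2 change -1.78 ± 0.20, SE; adjusted p = 0.00013), the subunits of ribonucleotide reductase, and the helicase subunits Mcm7 (log2 change -1.52 ± 0.16, SE; adjusted p = 0.00011) and Mcm4 (log2 change -1.49 ± 0.17, SE; adjusted p = 0.00014).

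Some regulators were called from 11.5 to 18.5 dpc, where 8.37% of all genes fell and 9.14% rose. Each one called upward passed the filter on low signals only through late ages, so its direction was fixed in advance. Of 9 cyclins 2 fell, Ccnf (log2 change -1.01 ± 0.20, SE; adjusted p = 0.0059) and Ccnb2, a partner of Cdk1 (log2 change -0.54 ± 0.15, SE; adjusted p = 0.035), and 1, Ccno, was called upward. Ccno was between 4.6 and 16.6 in the 8 samples through 16.5 dpc and at 429.2 and 427.8 at 18.5 dpc. Of 8 CDK inhibitors and pocket proteins 1 was called, also upward, namely Rb1, the retinoblastoma gene, which was between 16.4 and 45.2 through 16.5 dpc and at 68.7 and 62.3 at 18.5 dpc. Both passed the filter, a signal of 50 on 2 arrays, only through 18.5 dpc, so that they had to differ, and no size of change is given for them. Of 16 genes of the anaphase-promoting complex and its regulators 1 rose and 0 fell (4 up and 4 down at an unadjusted p under 0.05), namely Fbxo43, an inhibitor of the complex known for holding eggs in meiosis. Fbxo43 was between 11.5 and 29.4 through 14.5 dpc and between 138.5 and 199 later, and it passed the filter only through those later ages. Of 19 cell cycle transcription factors 2 fell, the E2F partner Tfdp1 (log2 change -0.75 ± 0.17, SE; adjusted p = 0.011) and Nfyb, a subunit of NF-Y (log2 change -0.65 ± 0.18, SE; adjusted p = 0.028). From 12.5 to 16.5 dpc 6 of the 19 fell, where 3.33% of all genes did. Among them Mybl2, which acts with MuvB at the CHR, fell from 177 ± 34.0 to 17.9 ± 8 (log2 change -2.52 ± 0.34, SE; adjusted p = 0.0012). Mybl2 was at 81 ± 21.7 at 18.5 dpc.

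Meiotic prophase genes rose in 1 step. Of 21 tested, 12 rose and 0 fell from 12.5 to 14.5 dpc, where 2.17% of all genes were called in either direction. From 11.5 to 18.5 dpc 11 rose and 0 fell (limma, with 16 up and 0 down at an unadjusted p under 0.05). Among all genes 9.14% rose and 8.37% fell over that course. After 14.5 dpc limma called 0 upward and 2 downward in each step, with 3 up and 5 down unadjusted from 14.5 to 16.5 dpc and 3 up and 8 down from 16.5 to 18.5 dpc, and the median log2 changes were -0.02 and -0.34. Stra8, which starts meiotic entry, went from 5.65 ± 4.2 at 12.5 dpc to 598 ± 143 at 14.5 dpc (mean ± SD, n = 2) and was back to 16.4 ± 9.4 at 18.5 dpc. Sycp1, of the synaptonemal complex, read between 1.3 and 13 in the 4 samples of the first 2 ages, then 404.1 and 239.1 (14.5 dpc), with 924.9 and 881.9 in the last samples. Both were called upward from 12.5 to 14.5 dpc, but at 12.5 dpc they were far below the filter. They passed it only through other ages, so that they had to differ, and no p-value is given for them. How many of the 12 genes called upward in that step, or of the 11 called from 11.5 to 18.5 dpc, passed the filter in the same way was not counted. Neither count can therefore be set against the calls of the mitosis genes. In each sample the list medians, taken as for the 40 genes, were between -0.99 and -0.79 at 11.5 and 12.5 dpc and between 0.67 and 0.90 at 14.5 and 16.5 dpc for meiotic prophase, and at 0.27 and 0.53 at 18.5 dpc. For DNA replication they were between 0.17 and 0.33 at the first 2 ages and between -0.36 and -0.19 at the last 2.

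**Figure D5:**
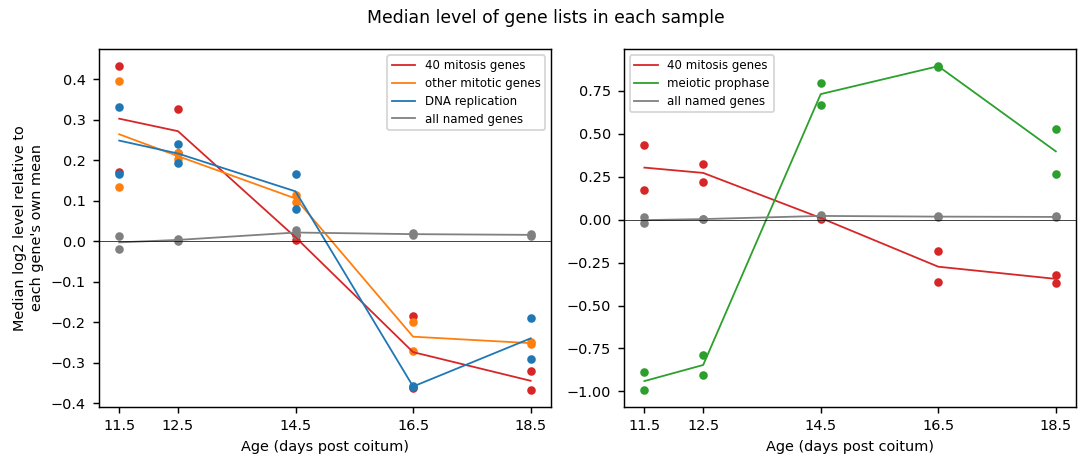
Both panels plot, for each sample, the median over a gene list of log2(signal + 16) relative to each gene's own mean, against age in dpc; points are samples and lines join the means of the 2 samples. On the left the 40 mitosis genes descend together with other mitotic and DNA replication genes, and on the right meiotic prophase genes go from -0.79 or less at the first 2 ages to 0.67 or more at 14.5 and 16.5 dpc and are at 0.27 and 0.53 at 18.5 dpc, while all named genes stay between -0.02 and 0.03.

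Markers of other cell types and a measure of RNA quality also differed between the ages. Among all genes 8.37% fell and 9.14% rose from 11.5 to 18.5 dpc, and 3.33% fell and 4.4% rose from 12.5 to 16.5 dpc. With marker lists this short, a count of 1 call is not read as a change of the cell type. Of 6 endothelial markers tested 4 fell and 0 rose from 11.5 to 18.5 dpc, and their summed signal was 574.7 and 677.6 at 11.5 dpc and 263.3 and 259.1 at 18.5 dpc. Of 7 pregranulosa and supporting cell markers 5 rose, with sums of 2121.3 and 2383.8 at 11.5 dpc and 3310.2 and 3549.9 at 18.5 dpc. Of 6 germ cell markers 4 rose and 1 fell, with sums of 926.8 and 815.7, then 2801.8 and 2764. From 12.5 to 16.5 dpc, however, 3 of the 6 germ cell markers fell and 0 rose (limma, with 1 up and 3 down at an unadjusted p under 0.05), with sums of 2517.4 and 1616.3, then 1126 and 1118.5, in the same direction as the mitosis genes. Over those ages 1 of 6 endothelial markers fell and 3 of 7 pregranulosa and supporting cell markers rose. From 16.5 to 18.5 dpc 2 of the 6 germ cell markers, Dppa3 and Kit, rose and 0 fell, where 0.588% of all genes rose and 0.254% fell. Whether the summed germ cell signals follow the number of germ cells was not tested. Of 5 mesonephros and epithelium markers 4 rose from 11.5 to 18.5 dpc (921.2 and 738.3, then 2806 and 2678.6), and the defining mesonephric genes Pax2 and Pax8 were too dim to test. Of 9 erythroid markers 3 rose and 3 fell, limma called 0 of 5 macrophage markers (0 up and 0 down at an unadjusted p under 0.05), and of 4 testis markers 1 rose, with Amh, Cyp17a1 and Insl3 too dim to test. The ratio of 3′ to 5′ Gapdh control signals, averaged over a sample's 3 arrays, was 0.845 and 0.829 at 11.5 dpc, and by 18.5 dpc it read 1.08 and 1.05. The b-Actin ratio, averaged in the same way, did not climb steadily with age. It read 1.77 and 1.5 (11.5 dpc), then 1.18 and 1.3 (12.5 dpc), the lowest pair. Later pairs were 1.71 and 2.19 (14.5 dpc), 1.54 and 1.56 (16.5 dpc), then 1.74 and 1.82 (18.5 dpc). Both 16.5 dpc samples thus lay above both 12.5 dpc samples, while those of 11.5 and 18.5 dpc overlapped. Array A alone, from which 29 of the mitosis genes were read, differed. There the b-Actin ratio ran from 1.57 to 1.88 (11.5 dpc), against 2.01 to 2.20 (18.5 dpc). On arrays B and C the samples of these ages overlapped. The part of any of these in the changes of the mitosis genes was not tested.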

How the data were processed

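Deposited was 1 signal intensity for each probe set on each array, brought by the authors to a mean of 125, per the labels. Their software is not stated in the sources at hand, and detection calls were not used. The 3 array types are not on a common scale, and the labels do not state that the arrays of 1 sample number received the same RNA.

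Signals were taken as log2(signal + 16). Tested were probe sets with a signal of 50 or more on 2 or more of a type's 10 arrays, 24825 of 36701 probe sets. Each type was fitted with limma 3.58.1 in R 4.3.3 (lmFit with the 5 ages as groups and 5 residual degrees of freedom, eBayes with an intensity trend). The steps between neighbouring ages, 12.5 to 16.5 dpc, 11.5 to 18.5 dpc and a moderated F test were read, and p-values were adjusted by Benjamini-Hochberg over the 3 types together. The code was tested on simulated data. Errors are SDs (n = 2) for means and SEs for log2 changes. The number of arrays, 2 per age and type, limits the precision.

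Gene names came from the platform annotation, for probe sets with 1 symbol only. Every member called in a test, and the member with the highest mean signal of each role, was given in full, and of other lists up to 4 called genes by adjusted p. The members and all gene lists were chosen with earlier results of these data known. Alternatives tried were other pseudocounts, filters, normalizations, adjustments and probe set choices, a replicate block, and each sample left out.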

Additional observations from a re-analysis of the deposited data

How the results depend on the processing

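No change of a mitosis gene called in a pair of ages reversed under any alternative. Of the 42 such changes 16 were called with each of the 10 samples left out, and of the 27 F tests 14 were. Over the 10 left-out samples the genes called were between 14 and 26 from 11.5 to 18.5 dpc, 3 and 18 from 12.5 to 16.5 dpc, and 16 and 27 in the F test. For the steps they were between 0 and 1 (11.5 to 12.5 dpc), 0 and 4 (12.5 to 14.5 dpc), 0 and 3 (14.5 to 16.5 dpc) and 0 and 4 (16.5 to 18.5 dpc). The median log2 change ran from -0.80 to -0.50 for 11.5 to 18.5 dpc, from -0.44 to -0.18 for 14.5 to 16.5 dpc and from -0.14 to 0.068 for 16.5 to 18.5 dpc. The other settings gave 420 values for the called changes, of which 401 stayed called and 19 did not. Without the intensity trend calls were lost for Cdk1, Bub1, Ncapd2 and Cenpe from 12.5 to 16.5 dpc (adjusted p = 0.052, 0.0505, 0.064 and 0.075), Mad2l1, Espl1 and Ncapg from 11.5 to 18.5 dpc (0.055, 0.054 and 0.077) and Top2a and Cenpf from 16.5 to 18.5 dpc (0.085 and 0.13). With no filter they were lost for Cdc25c from 12.5 to 16.5 dpc (0.065), Racgap1 over the whole course (0.0508) and Top2a and Cenpf in the last step (0.0504 and 0.052). In that step Top2a was also lost with 64 added to the signal (0.054) and with median centring (0.058), and Cenpf with 1 added (0.05002). Ncapd2 from 12.5 to 16.5 dpc was lost with 1 added (0.082), and Aurkb over the whole course with array A taken first (0.11). Adding 64 to the signal gave 1 call from 12.5 to 14.5 dpc and a whole-course median of -0.53, and the mean of all tested probe sets gave -0.52. Quantile normalization gave 2 calls from 12.5 to 14.5 dpc and 1 from 14.5 to 16.5 dpc. Adjusting p-values within array types gave 3 and 2 there and 5 from 16.5 to 18.5 dpc, where no filter or no intensity trend gave 1 each. The cause was not tested. Same-numbered samples did not deviate together (r between -0.16 and 0.22 on array A, -0.09 and 0.10 on B, -0.03 and 0.07 on C, with 1, 0 and 0 of 10 pairs over 0.1). With the replicate block 26 genes were called from 11.5 to 18.5 dpc, 13 from 12.5 to 16.5 dpc, 2 from 16.5 to 18.5 dpc and 25 in the F test, and Cenpf from 16.5 to 18.5 dpc was the 1 change of a mitosis gene that lost its call.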

Other observations

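At 16.5 dpc 1 probe set of securin departed from the one that stands for the gene. The Pttg1 probe set of array C had signals of 312 and 480.6 at 11.5 dpc, 501.4 and 481.5 at 12.5 dpc, 615.2 and 503.1 at 14.5 dpc, 131 and 90.2 at 16.5 dpc, then 376 and 274.8 at 18.5 dpc. Both 16.5 dpc samples lay far below all others, and it fell 4.58-fold from 14.5 to 16.5 dpc (log2 change -2.20 ± 0.29, SE; adjusted p = 0.0044) and rose 2.70-fold from 16.5 to 18.5 dpc (log2 change 1.43 ± 0.29, SE; adjusted p = 0.048, limma). The Pttg1 probe set of array A levelled at 16.5 and 18.5 dpc without such a dip.

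A dip at 16.5 dpc also stood out in genes outside the 40, chosen here after their values were seen. Cks2, which binds Cdk1 and its cyclins, was at 999.6 ± 93.2 at 12.5 dpc, 474 ± 28.8 at 16.5 dpc and 1228 ± 80.0 at 18.5 dpc (mean ± SD, n = 2). It fell 2.07-fold (log2 change -1.05 ± 0.14, SE; adjusted p = 0.0012) and then rose 2.54-fold (log2 change 1.34 ± 0.14, SE; adjusted p = 0.0011). Dppa3, a marker of germ cells, was at 413 ± 93.6 at 14.5 dpc, 29.2 ± 5.6 at 16.5 dpc and 1162 ± 108 at 18.5 dpc, and rose 26.1-fold (log2 change 4.71 ± 0.23, SE; adjusted p = 1.4e-06). Kit, the receptor for stem cell factor in germ cells, was at 83.1 ± 18.2, 34.8 ± 3.9 and 305 ± 21.8 (log2 change 2.66 ± 0.20, SE; adjusted p = 7.3e-05). Among the mitosis genes Ect2 had its 2 lowest samples at this age, and Prc1 rose after it.

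The passenger scaffold Incenp had 5 tested probe sets, and 1 of them was called. That probe set (array B) had signals of 44.3 and 67 at 11.5 dpc, 239 and 239.3 at 12.5 dpc, 119.9 and 114.2 at 14.5 dpc, 184.6 and 150.4 at 16.5 dpc, then 181.8 and 96 at 18.5 dpc. It rose 3.61-fold from 11.5 to 12.5 dpc (log2 change 1.85 ± 0.29, SE; adjusted p = 0.034). From 11.5 to 18.5 dpc it was called upward too (log2 change 1.07 ± 0.29, SE; adjusted p = 0.027, limma). The other 4 were called in neither comparison. From 11.5 to 12.5 dpc 1 of these, on array A, went the same way (log2 change 0.60 ± 0.21, SE, with limma's unadjusted p = 0.015 and adjusted p = 0.27). Which of these probe sets reads the Incenp transcript was not tested.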
